A study of Mus musculus with 12 samples.

Results

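Zymosan is a particle of yeast cell wall, and the genes described here encode the receptors that bind it and the proteins that carry its signal in macrophages (Mϕ). They are the C-type lectin receptors Clec7a, Clec4n and Clec4e, the Toll-like receptors Tlr2 and Tlr6, the adaptor Myd88, the kinase Syk, and the complex of Card9, Bcl10 and Malt1. The 10 genes were chosen by name, and all 10 were found among the 47643 gene identifiers of both deposited tables. Each also passed the minimum for low values, a mean of 3 normalized counts, so every member was tested in every comparison.

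Dectin-1, the product of Clec7a, binds β-glucan and recruits the tyrosine kinase Syk through its own cytoplasmic tail. Dectin-2 (Clec4n), which binds mannans, and Mincle (Clec4e), which binds microbial glycolipids, reach Syk through the Fc receptor γ chain. Downstream of Syk, the adaptor Card9 joins Bcl10 and the protease Malt1 and activates NF-κB. Tlr2 pairs with Tlr6 to sense zymosan lipoproteins and signals through Myd88, and peritoneal Mϕ are among the first cells to meet injected zymosan.

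Peritonitis was induced in 8 to 12 week old female C57BL/6 mice with zymosan A (5 mg/kg), given into the peritoneum to all animals of all groups. From day 1, mice received every day either the inhibitor compound III (CIII, 25 mg/kg), which blocks the prostaglandin E2 synthase mPGES-1, or its vehicle (VEH), a solution of Tween-80, carboxymethyl cellulose and NaCl. At day 6, CD45+ CD11b+ lavage cells were sorted into F4/80lo Mϕ, low for F4/80 and MerTK and high for MHCII, and F4/80hi Mϕ, high for F4/80 and MerTK. The gating strategy set CD11c+ MHCII+ dendritic cells aside first, and Ly6G+ neutrophils before the F4/80lo gate. The comparisons ask whether CIII changed the level of the zymosan sensing genes within each subpopulation and whether the subpopulations differed in it. There were 3 libraries of 3′ mRNA ends for each of the 4 groups F4/80lo VEH, F4/80lo CIII, F4/80hi VEH and F4/80hi CIII. Neither the labels nor the methods say whether each library came from 1 mouse or from pooled mice, so p-values measure the spread between these libraries. They also do not say what libraries of equal replicate number share. No animals without zymosan are in these data, so levels before zymosan are not shown here.

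The 12 libraries held 426624 to 3389448 reads on genes. A count of 0 allows 0.885 to 7.03 reads per 1000000 (RPM) across these depths, which covers counting error only. The F4/80 gene Adgre1 ran from 205 to 381 RPM in the F4/80lo libraries and from 366 to 1336 RPM in the F4/80hi libraries. Mertk, the other gene of the gate, overlapped, at 193 to 450.0 RPM in F4/80lo libraries against 169 to 435 RPM in F4/80hi libraries. It did not overlap between the treatments, at 193 to 214 RPM with VEH and 249.8 to 450.0 with CIII in the F4/80lo groups, and 169 to 272 with VEH and 330.3 to 435 with CIII in the F4/80hi groups. Of the neutrophil markers Camp and Ngp were at 0 in all 12 libraries and Ly6g reached at most 0.769 RPM. Libraries numbered 3 stood apart. The summed level of 9 genes of resident large peritoneal Mϕ was 2067 RPM in F4/80lo VEH 3 and 2076 in F4/80hi VEH 3, against 9762 to 29075 in the other 10 libraries, and most of it was Fn1. The other 8 genes of this list summed to 129 in F4/80lo VEH 3, 260 in F4/80lo CIII 3, 166 in F4/80hi VEH 3 and 585 in F4/80hi CIII 3. Libraries 1 and 2 had 527 to 1263 in the F4/80lo groups and 4149 to 6729 in the F4/80hi groups. The libraries numbered 3 in all groups also gave 2.65 to 14.3% of their reads to Gm42418, whose reads are known to include ribosomal RNA, against at most 0.579% in the others. As these are bulk samples, fewer cells expressing a gene and less RNA per cell cannot be told apart.

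The promoters of Card9, Tlr2 and Clec7a are shown, as these are the adaptor that stood lowest with CIII and the receptors for β-glucan and lipoproteins. Each sequence is the 250 bases before the RefSeq start on GRCm38.p6, read 5′ to 3′ on the minus strand, and capitals mark matches to the motifs below.
Card9, chr2:26360910-26361159: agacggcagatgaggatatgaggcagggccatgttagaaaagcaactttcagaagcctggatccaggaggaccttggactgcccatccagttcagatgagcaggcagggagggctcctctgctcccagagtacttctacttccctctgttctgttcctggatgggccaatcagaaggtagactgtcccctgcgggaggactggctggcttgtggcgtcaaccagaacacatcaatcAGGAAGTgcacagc
Tlr2, chr3:83841609-83841858: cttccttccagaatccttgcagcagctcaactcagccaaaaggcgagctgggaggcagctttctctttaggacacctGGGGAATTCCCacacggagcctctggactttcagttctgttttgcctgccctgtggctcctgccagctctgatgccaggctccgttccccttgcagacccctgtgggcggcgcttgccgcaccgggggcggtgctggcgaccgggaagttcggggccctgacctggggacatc
Clec7a, chr6:129472780-129473029: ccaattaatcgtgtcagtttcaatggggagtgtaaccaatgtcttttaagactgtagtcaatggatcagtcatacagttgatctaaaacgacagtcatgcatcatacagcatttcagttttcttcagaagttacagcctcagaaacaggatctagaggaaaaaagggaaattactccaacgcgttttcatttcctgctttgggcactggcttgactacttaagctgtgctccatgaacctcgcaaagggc

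The motifs searched on both strands were AGGAAGT, a core bound by PU.1 and other ETS factors of myeloid cells, TGANTCA for AP-1, and the NF-κB consensus. The Card9 window held 1 AGGAAGT, which begins 14 bases before the start. The Tlr2 window held 2 overlapping matches to the NF-κB consensus, 173 and 172 bases before the start. No match was found in the Clec7a window, which says only that these letters are not in it. RefSeq windows were found for 8 of the 10 members. Among them AGGAAGT was in those of Card9 and Tlr6 and the NF-κB consensus in those of Bcl10 and Tlr2. Over all 32851 promoter windows of the same length, 7.69% held AGGAAGT, 6.75% TGANTCA and 3.90% the NF-κB consensus. Such matches describe letters and do not show that a factor binds.

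With CIII, Card9 was the member that stood lowest against VEH in F4/80lo Mϕ, but neither it nor any other member passed the test across all genes in either subpopulation. The mean Card9 level of F4/80lo Mϕ was 87.2 ± 11.2 normalized counts after VEH and 24.3 ± 14.6 after CIII (mean ± SD, n = 3). F4/80hi Mϕ averaged 57.5 ± 38.4 after VEH and 26.1 ± 20.1 after CIII (mean ± SD, n = 3). The partners of Card9 in its complex, Bcl10 and Malt1, overlapped between the treatments in both subpopulations, as did all the receptors. The levels of the 10 genes in each library are shown in the panels that follow.

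**Figure D1:**
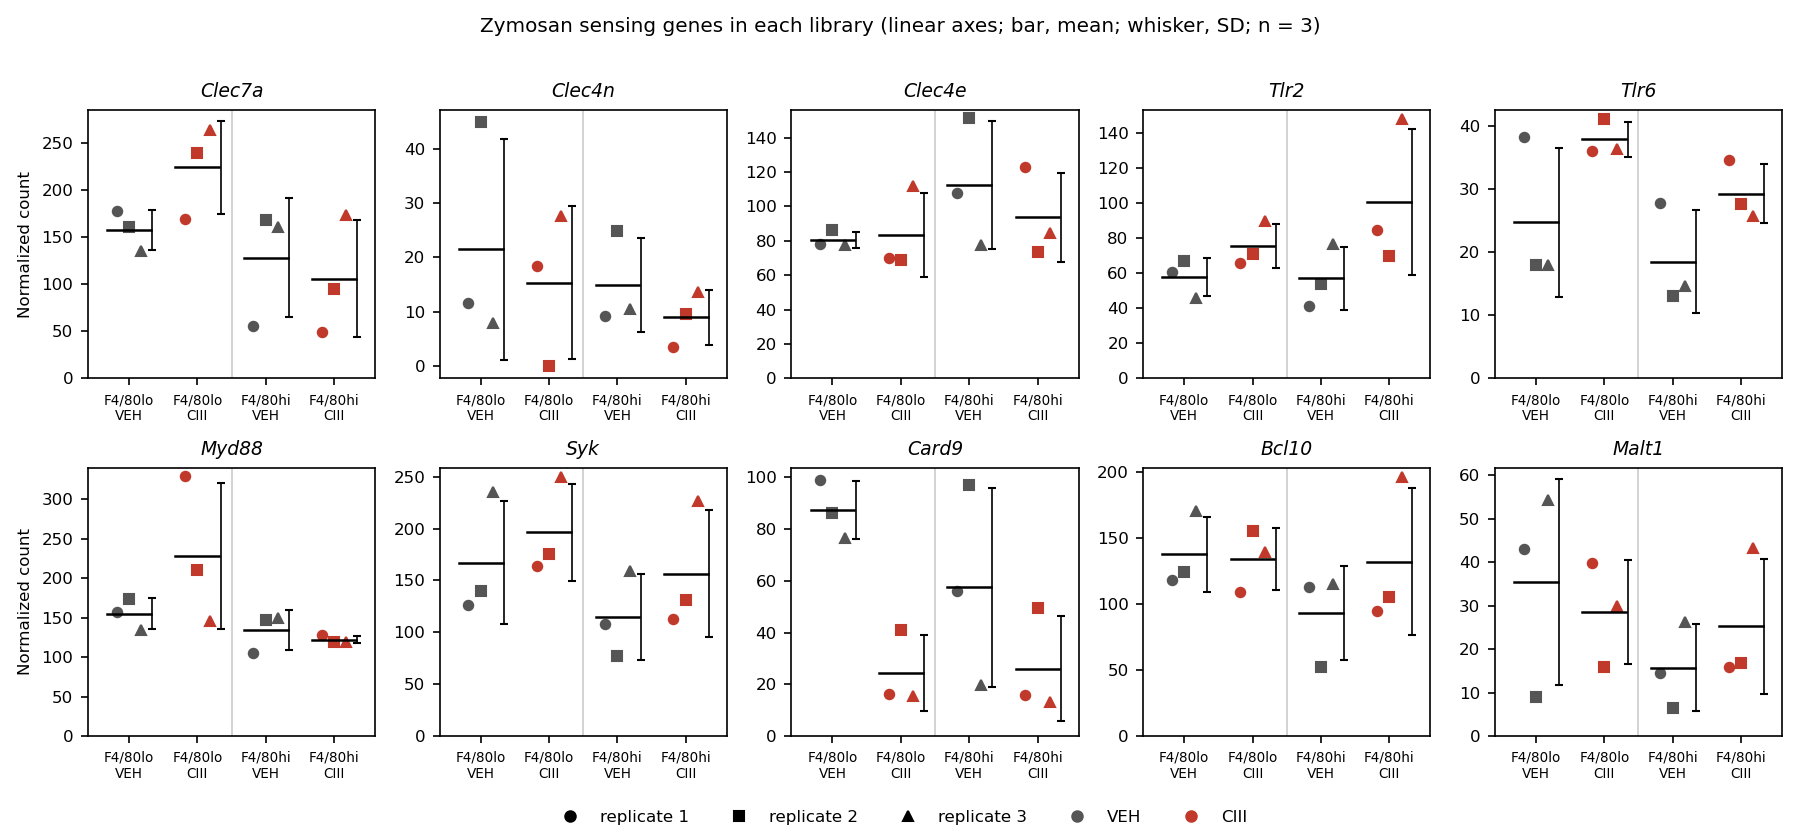
Normalized counts (linear axes) of the 10 zymosan sensing genes in the 12 libraries, with 1 point per library, the mean as a bar and the SD as a whisker (n = 3). Normalization was set separately for F4/80lo and F4/80hi Mϕ, so only VEH and CIII within a subpopulation are on 1 scale. In the Card9 panel the 3 F4/80lo CIII libraries lie between 15.5 and 41.1, below the F4/80lo VEH libraries at 76.6 to 98.9.

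Card9 lies on chromosome 2 (GRCm38, 26352176 to 26360918, minus strand). Its normalized counts in F4/80lo Mϕ were 98.9, 86.0 and 76.6 in VEH libraries 1, 2 and 3 and 16.3, 41.1 and 15.5 in the CIII libraries. Every CIII library was below every VEH library, and CIII was lower within each replicate number. These values rest on 382 reads over the VEH libraries and 55 over the CIII libraries. The log2 difference was −1.94 (SE 0.46, 95% interval −2.95 to −0.93), a level 0.261 times that of VEH. By limma on log2(normalized count + 1) the unadjusted p was 0.00138 and the adjusted p 0.9996 over 10718 genes, where Card9 ranked 5 by p. An exact two-sided permutation test gave p = 0.1, the smallest that 3 against 3 libraries allow. Weighting the libraries by their quality was the only one of 17 alternatives in which it passed, with a log2 difference of −2.35 and a limma adjusted p of 0.0280, and the adjusted p ran up to 0.9998 over the others. With replicate numbers 1 and 2 alone the difference was −1.79 (limma adjusted p = 0.353).

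In F4/80lo Mϕ 0 of 10718 genes passed the limma threshold (percent called 0), while 289 had an unadjusted p under 0.05, and edgeR called 0 and DESeq2 2, Ffar2 and Lrg1, singled out here after their values were seen. Of all genes, 4.92% had all 3 CIII libraries below all 3 VEH libraries and 3.82% had them all above. Among the members 1 of 10 was below, Card9, and 0 of 10 above. The median log2 difference of the 10 members was 0.14, with 6 positive and 4 negative, beside −0.05 over all genes tested.

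Markers of other cells are given beside the Card9 levels. The summed level of 12 neutrophil markers was 53.7 to 78.2 RPM in the F4/80lo VEH libraries and 41.5 to 56.3 in the CIII libraries, beside 52.5 to 128 with VEH and 41.9 to 60.7 with CIII for F4/80hi Mϕ. Within this list 4 genes were tested in F4/80lo Mϕ, of which 1 was positive with CIII (median log2 difference −1.15). Camp and Ngp were at 0 in all 12 libraries, while S100a8 did not overlap between the treatments. S100a8 was at 8.47 to 22.1 RPM with VEH and 4.61 to 8.11 with CIII in F4/80lo Mϕ. Among F4/80hi libraries it was at 27.5 to 74.2 with VEH and 6.77 to 14.3 with CIII. A count of 0 allows 2.31 to 7.03 RPM in the F4/80lo CIII libraries, so the S100a8 values there lie near it. Csf3r was detected in every group, at 8.28 to 48.4 RPM. For 8 dendritic cell markers the sum was 8.56 to 393 in the F4/80lo VEH and 89.3 to 229.7 in the CIII libraries. Of these 6 were tested in F4/80lo Mϕ and all 6 were positive with CIII (median log2 difference 1.04), none past the adjusted test. Btla did not overlap (1.48 to 3.59 RPM with VEH, 9.27 to 19.98 with CIII), nor did Xcr1 (0 to 2.39 and 3.07 to 4.69). The CIII values of Xcr1 also lie near what a 0 allows. For F4/80hi Mϕ the dendritic cell sum was 9.66 to 26.0 and 2.71 to 14.4. All 7 MHC class II genes were positive with CIII in both subpopulations, by medians of 0.87 in F4/80lo Mϕ and 1.65 in F4/80hi Mϕ. Of 9 T and NK cell markers 4 were tested in F4/80lo Mϕ and 3 were positive (median 0.71). There Trbc2 (1.195 to 5.65 RPM with VEH, 9.27 to 20.8 with CIII) and Trac (0 to 3.84 and 4.61 to 7.03) did not overlap. The CIII values of Trac too lie near what a 0 allows. In F4/80lo Mϕ 5 of 8 general macrophage markers, 4 of 8 resident, 5 of 9 monocyte-derived macrophage markers and 1 of 3 B cell markers tested were positive. Besides Mertk, Csf1r did not overlap there (488 to 1183 RPM with VEH, 1257 to 1600 with CIII). Nor did Cx3cr1 (95.3 to 349 and 354 to 832) and Itgb7 (84.9 to 164 and 244 to 414). Of 8 eosinophil and mast cell markers 1 could be tested, which was negative, and of 6 mesothelial markers 0. Dendritic cells and neutrophils were gated out ahead of the F4/80lo gate, and cells negative for CD11b were classed as lymphoid. The part of any that remained, or of the macrophage, T and NK cell, MHC class II and Mertk differences, in the Card9 levels was not tested.

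Within F4/80hi Mϕ the normalized counts of Card9 were 55.8, 96.7 and 19.9 with VEH and 15.9, 49.3 and 13.1 with CIII. The groups overlapped, since the lowest VEH library was below the highest CIII library, but each CIII library was below the VEH library of the same number. The log2 difference was −1.09 (SE 0.67, 95% interval −2.61 to 0.43, limma adjusted p = 0.992, exact permutation p = 0.2). It was −1.70 without F4/80hi VEH 3 (limma adjusted p = 0.462) and −0.59 without F4/80hi VEH 2 (0.994), and −1.35 with numbers 1 and 2 alone (0.626), all short of the threshold. Over its 17 alternatives the adjusted p ran from 0.310 to 0.99997. In all 4 groups the library numbered 3 had the lowest Card9 level of its group. Card9 overlaps Gm13562 on the opposite strand within its last 1000 bases, and Gm13562 was at 0 in all 12 libraries.

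**Figure D2:**
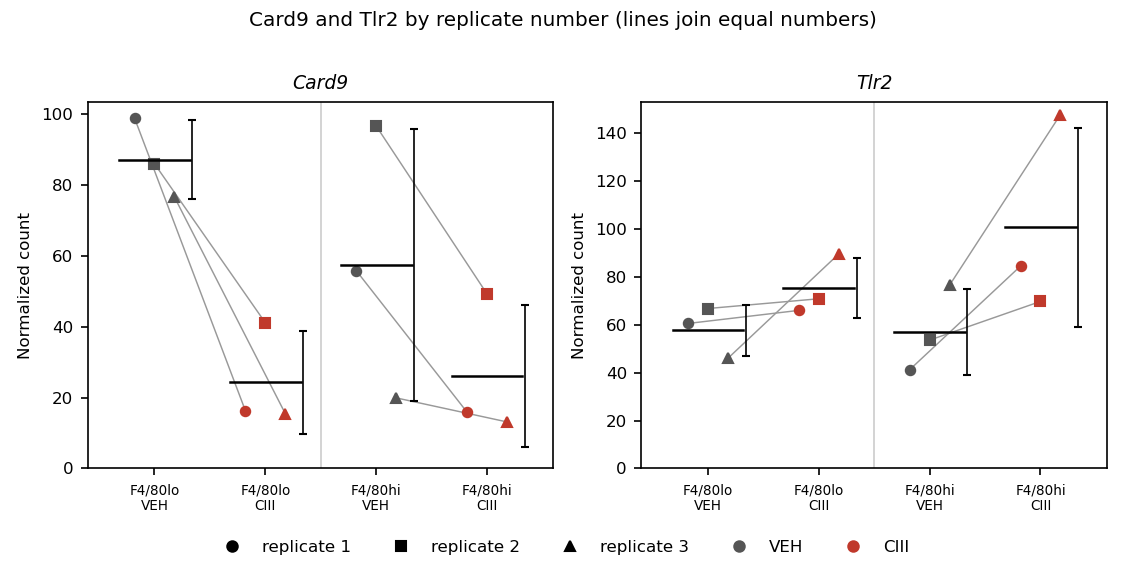
Normalized counts (linear axes from 0) of Card9 and Tlr2, with lines joining the VEH and CIII libraries of equal replicate number within a subpopulation, the mean as a bar and the SD as a whisker (n = 3). All 6 lines of Card9 run down, from 98.9 to 16.3 at the steepest, and all 6 lines of Tlr2 run up, although neither gene passed the adjusted test. Libraries of equal number also deviated together between the subpopulations, so the 6 lines are not independent.

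Bcl10, the scaffold that Card9 nucleates, lies on chromosome 3 (145922804 to 145934356, plus strand). F4/80lo Mϕ held 119, 125 and 171 normalized counts of it with VEH and 109, 155 and 139 with CIII. The groups overlapped and the log2 difference was −0.03 (95% interval −0.77 to 0.71). F4/80hi Mϕ held 113, 52.3 and 115 with VEH and 94.6, 106 and 196 with CIII. These too overlapped, with CIII higher in 2 of 3 replicate numbers and a log2 difference of 0.50 (95% interval −0.49 to 1.495) that was 0.13 without VEH library 2 and 0.18 without CIII library 3.

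Malt1, the protease of the complex on chromosome 18 (65430938 to 65479067, plus strand), was at 43.1, 8.99 and 54.3 normalized counts with VEH and 39.7, 16.0 and 29.8 with CIII in F4/80lo Mϕ. Its libraries spread widely within each treatment, and the log2 difference of −0.06 carried a 95% interval of −1.52 to 1.40. The F4/80hi libraries had 14.6, 6.53 and 26.2 with VEH and 15.9, 16.8 and 43.2 with CIII. Each CIII library was above the VEH library of its number, the groups overlapped, and the log2 difference was 0.69 (95% interval −0.72 to 2.09). It was 1.13 without VEH library 3, 0.24 without CIII library 3 and 0.20 without VEH library 2.

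Syk, the kinase between the lectin receptors and Card9, lies on chromosome 13 (52583173 to 52648792, plus strand). Its normalized counts in F4/80lo Mϕ were 127, 139.9 and 235 with VEH and 164, 176 and 249.8 with CIII. The F4/80hi counts were 108, 77.1 and 159 with VEH and 113, 131 and 226 with CIII. CIII was higher within every replicate number of both subpopulations, the treatments overlapped, and the library numbered 3 was the highest of all 4 groups. The log2 difference was 0.26 (95% interval −0.54 to 1.06) for F4/80lo Mϕ, or 0.53 without VEH library 3 and 0.08 without CIII library 3. For F4/80hi Mϕ it was 0.44 (95% interval −0.47 to 1.36), or 0.71 without VEH library 3 and 0.14 without CIII library 3.

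Among the receptors, Tlr2 lies on chromosome 3 (83836272 to 83841767, minus strand). Among F4/80hi libraries it was at 41.2, 53.6 and 76.5 normalized counts with VEH and at 84.5, 69.7 and 148 with CIII. CIII was higher within each number, and the groups overlapped only because VEH 3 was above CIII 2. The log2 difference was 0.78 (SE 0.41, 95% interval −0.15 to 1.70, limma adjusted p = 0.992, exact permutation p = 0.2). Without F4/80hi CIII 3 it was 0.47. Without F4/80hi VEH 3 it was 1.01 and with numbers 1 and 2 alone 0.70 (limma adjusted p = 0.492 and 0.683). Tlr2 counts of F4/80lo Mϕ were 60.5, 66.7 and 46.0 with VEH and 66.0, 70.8 and 89.5 with CIII. Here again CIII was higher within each number, by 0.38 on the log2 scale (95% interval −0.42 to 1.19), and by 0.10 with numbers 1 and 2 alone.

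Tlr6, the partner of Tlr2 on chromosome 5 (64952031 to 64960097, minus strand), was at 38.4, 18.0 and 18.0 normalized counts with VEH and 36.2, 41.1 and 36.5 with CIII in F4/80lo Mϕ. One VEH library lay within the CIII range and the other two below it, with a log2 difference of 0.68 (95% interval −0.34 to 1.71). It was 1.03 without VEH library 1 and 0.29 with libraries weighted by quality. The F4/80hi counts of Tlr6 were 27.9, 13.1 and 14.7 with VEH and 34.7, 27.6 and 25.7 with CIII. CIII was higher within each number, the groups overlapped, and the difference was 0.70 (95% interval −0.32 to 1.72).

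Myd88, the adaptor of these receptors, lies on chromosome 9 (119335934 to 119341411, minus strand). Its F4/80lo level was 157, 173 and 135 normalized counts with VEH and 328, 210.2 and 146 with CIII. CIII library 1 stood above all others and CIII library 3 within the VEH range, for a log2 difference of 0.48 (95% interval −0.33 to 1.30) that was 0.18 without CIII library 1. F4/80hi Mϕ held 105, 148 and 149.9 with VEH and 128, 119 and 119.8 with CIII, all CIII libraries lying within the VEH range, and the difference was −0.12 (95% interval −0.82 to 0.59). It ran from −0.28 to −0.03 when 1 library was left out (−0.28 without VEH library 1). Myd88 overlaps Slc22a14, at 0 in all 12 libraries, on its own strand and Acaa1a on the other.

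Clec7a, the Dectin-1 gene, lies on chromosome 6 (129461591 to 129472779, minus strand) and carries the biotype polymorphic pseudogene in the annotation used. Its normalized counts in F4/80lo Mϕ were 178, 160.5 and 136 with VEH and 169, 239.9 and 264 with CIII. Libraries 2 and 3 of CIII were above all VEH libraries and library 1 was within their range, and the log2 difference was 0.49 (95% interval −0.25 to 1.22). It was 0.25 with numbers 1 and 2 alone and 0.15 with libraries weighted by quality. Counts in F4/80hi Mϕ were 55.8, 169 and 160.4 with VEH and 49.8, 94.9 and 173 with CIII. The number 1 libraries were low in both treatments, and the difference was −0.29 (95% interval −1.56 to 0.98), or 0.16 without CIII library 1, −0.80 without VEH library 1, −0.05 without VEH library 3 and −0.73 without CIII library 3.

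Clec4e, the Mincle gene on chromosome 6 (123281789 to 123289870, minus strand), was at 78.0, 86.0 and 77.3 normalized counts with VEH and 70.2, 68.5 and 112 with CIII in F4/80lo Mϕ. It was at 108, 152 and 77.6 with VEH and 123, 73.3 and 84.8 with CIII in F4/80hi Mϕ. The treatments overlapped in both, with log2 differences of 0.02 (95% interval −0.77 to 0.81) and −0.24 (−1.09 to 0.61). The latter was −0.48 without VEH library 3 and 0.00 without VEH library 2.

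The neighbouring Clec4n, the Dectin-2 gene (chromosome 6, 123229843 to 123247021, plus strand), was weakly detected, with 194 reads over all 12 libraries. The F4/80lo libraries had 11.6, 44.9 and 7.99 normalized counts with VEH and 18.4, 0 and 27.6 with CIII. The 0 came from the shallowest library and allows up to 6.85 normalized counts. F4/80hi Mϕ held 9.31, 24.8 and 10.5 with VEH and 3.61, 9.61 and 13.7 with CIII. The log2 difference of −1.08 for F4/80lo Mϕ (95% interval −3.61 to 1.46) was the least precise of the 10 genes. It rested on the 0 of CIII library 2 and was 0.44 without that library, and CIII was higher in 2 of 3 replicate numbers. For F4/80hi Mϕ it was −0.70 (95% interval −2.18 to 0.78), and −1.05 to −0.22 when 1 library was left out (−0.22 without CIII library 1).

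**Figure D3:**
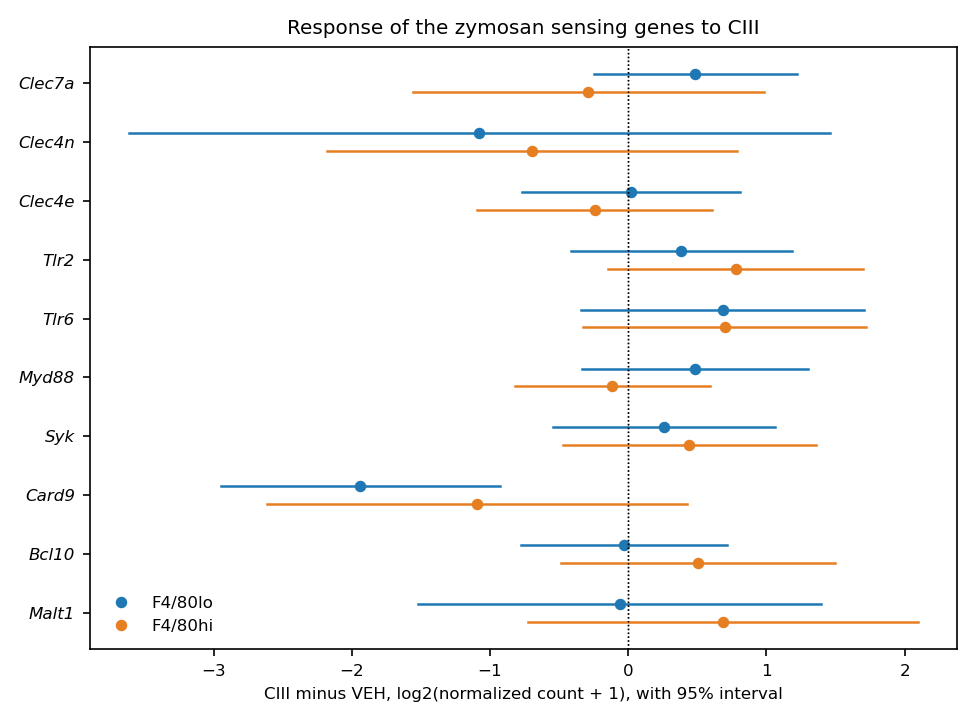
Log2 difference between CIII and VEH in log2(normalized count + 1) for the 10 genes, with 95% intervals from limma, in F4/80lo (blue) and F4/80hi Mϕ (orange), 3 libraries per treatment. The interval of Card9 in F4/80lo Mϕ, −2.95 to −0.93, is the only one that leaves out 0 before adjustment, in a fit without the replicate number. With that number as a block, the unadjusted limma p in F4/80hi Mϕ was 0.0146 for Card9 and 0.0201 for Tlr2 (adjusted 0.310 and 0.346).

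Across F4/80hi Mϕ 0 of 10499 genes passed (percent called 0), 413 had an unadjusted limma p under 0.05, and edgeR and DESeq2 also called 0. Among the 10 members 0 had all 3 CIII libraries above or all below the VEH libraries, beside 4.73% and 5.76% of all genes. The member median was 0.16, with 5 positive and 5 negative, beside 0.05 over all genes tested.

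The responses of the subpopulations to CIII were compared directly, in jointly normalized counts over the 12 libraries. The difference between the responses, F4/80lo minus F4/80hi, was −0.82 for Card9 (95% interval −2.68 to 1.04), 0.80 for Clec7a (−0.64 to 2.24) and 0.62 for Myd88 (−0.37 to 1.61). It was −0.73 for Malt1 (−2.82 to 1.36), −0.51 for Bcl10, −0.37 for Tlr2 and −0.35 for Clec4n. The others were at 0.28 for Clec4e, −0.16 for Syk and 0.00 for Tlr6. No member passed, and across all 10660 genes limma, edgeR and DESeq2 each called 0 (percent called 0), with 192 at an unadjusted limma p under 0.05. Leaving out F4/80hi VEH 3 brought the Card9 value to −0.21 and leaving out F4/80hi VEH 2 to −1.32. The Clec7a value was 0.35 without F4/80hi CIII 1 and 1.31 without F4/80hi VEH 1, and the Myd88 value 0.32 without F4/80lo CIII 1.

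Between the subpopulations, Clec7a was the member with the largest separation, 1.65 times as high in F4/80lo as in F4/80hi Mϕ over both treatments, but no member passed the test. The 2 deposited tables were on separate scales, so whole reads were recovered and normalized together for these comparisons. Over the 6 libraries of each subpopulation, the jointly normalized count of Clec7a ran from 128 to 252 (median 166) for F4/80lo and from 51.8 to 178 (median 132) for F4/80hi Mϕ. The ranges overlapped, with F4/80lo higher in 4 of 6 pairs of equal treatment and number. The log2 difference was 0.72 (SE 0.34, 95% interval 0.00 to 1.44, limma adjusted p = 0.535). It was 0.46 without F4/80hi VEH 1. With numbers 1 and 2 alone it was 1.06 (limma adjusted p = 0.0991), the smallest adjusted p over its 24 alternatives, which reached 0.830.

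Split by treatment, the Clec7a difference between the subpopulations was 0.32 with VEH (95% interval −0.70 to 1.34) and 1.12 with CIII (0.10 to 2.14, limma adjusted p = 0.906), on the log2 scale of jointly normalized counts. For Myd88 it was 0.09 with VEH (−0.61 to 0.79) and 0.71 with CIII (0.01 to 1.41, limma adjusted p = 0.916). Both CIII intervals leave out 0 before adjustment only. The Clec7a difference with CIII was 0.67 without F4/80hi CIII 1 and that of Myd88 0.41 without F4/80lo CIII 1. Of the 10660 genes 0 were called by limma within VEH and 0 within CIII (percent called 0 in each), with 623 and 573 at an unadjusted p under 0.05. There edgeR called 0 and 0, and DESeq2 19 and 22. Leaving out 1 library gave up to 22 calls within VEH, without F4/80hi VEH 3, and the replicate block gave 11 in each.

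Syk was higher in F4/80lo than in F4/80hi Mϕ in 6 of 6 pairs of equal treatment and number, with 121 to 238 jointly normalized counts (median 164) against 80.7 to 233 (median 127). Its log2 difference was 0.34 (95% interval −0.23 to 0.91), 0.21 without F4/80lo VEH 3 and 0.49 without F4/80hi CIII 3. Myd88 spanned 127 to 315 (median 159) against 110.2 to 155 (median 128) and was higher in F4/80lo in 5 of 6 pairs, by 0.40 (95% interval −0.09 to 0.90). Without F4/80lo CIII 1 this was 0.25. Clec4e leaned the other way and was lower in F4/80lo Mϕ in 5 of 6 pairs, at 66.7 to 106 (median 73.6) against 76.3 to 159 (median 100.04), by −0.41 (95% interval −0.94 to 0.11).

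Card9 spanned 14.8 to 94.6 jointly normalized counts (median 56.1) in the F4/80lo libraries, against 13.5 to 101 (median 35.9) in the F4/80hi libraries. Its log2 difference between the subpopulations was 0.31 (95% interval −0.62 to 1.24), 0.00 without F4/80hi VEH 3 and 0.59 without F4/80hi CIII 2. Split by treatment it was 0.72 with VEH (95% interval −0.59 to 2.04) and −0.10 with CIII (−1.42 to 1.21). The remaining differences were 0.49 for Malt1, −0.27 for Tlr2, 0.26 for Tlr6, 0.24 for Bcl10 and −0.03 for Clec4n, each with an interval that covers 0. With 1 library left out Malt1 ran from 0.24 to 0.87, Tlr2 from −0.38 to −0.11, Tlr6 from 0.09 to 0.42 and Bcl10 from 0.05 to 0.40. The lowest came without F4/80hi VEH 2 for Malt1 and Bcl10 and without F4/80lo VEH 1 for Tlr6. By treatment Malt1 was at 0.86 with VEH and 0.12 with CIII, and Bcl10 at 0.50 and −0.02.

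**Figure D4:**
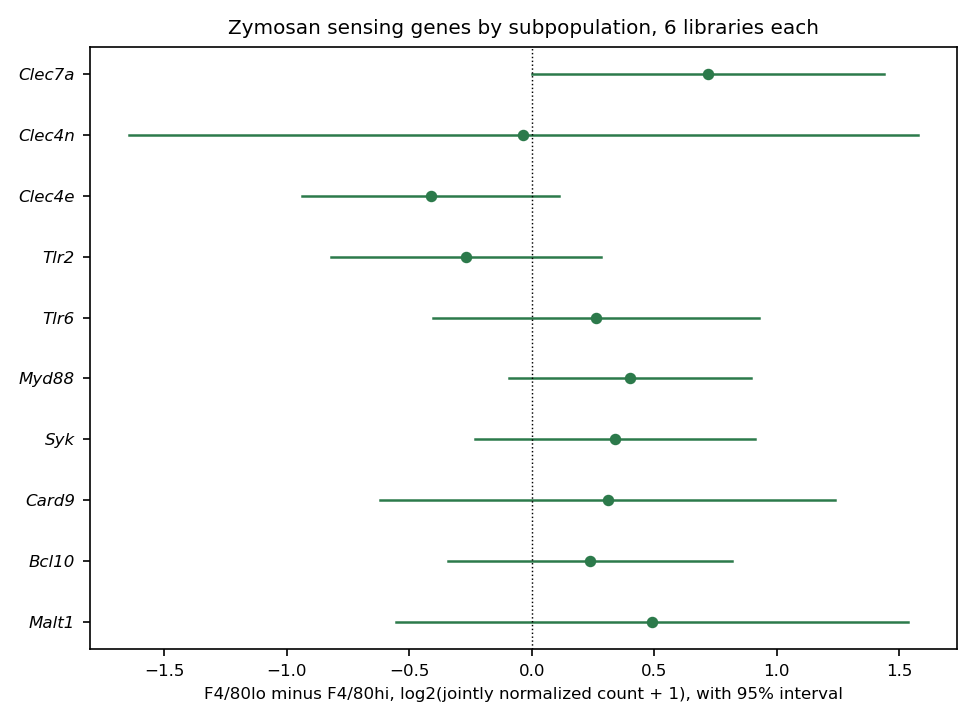
Log2 difference between F4/80lo and F4/80hi Mϕ in log2(jointly normalized count + 1), averaged over VEH and CIII, with 95% intervals from limma, for the 10 genes (6 libraries per subpopulation). Clec7a at 0.72 lies farthest from 0 and Clec4n at −0.03 nearest to it with the widest interval, −1.64 to 1.58.

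Of the 10660 genes tested between the subpopulations 2 passed by limma (percent called 0.0188), Grk3, higher in F4/80lo, and Saa3, lower in it. With no minimum on low values 0 passed, as in 9 of 12 fits that left out 1 library. With the replicate number as a block 264 passed and with DESeq2 140, yet 0 of the 10 members did under any of the 24 alternatives. The member median was 0.29, with 7 positive and 3 negative, beside −0.01 over all genes tested. Beside these values, 7 of 7 tested MHC class II genes, part of the F4/80lo gate, and 5 of 5 dendritic cell markers were higher in F4/80lo Mϕ, by medians of 2.25 and 3.32. So were 9 of 9 monocyte-derived macrophage, 3 of 3 B cell and 3 of 3 T and NK cell markers (medians 0.99, 1.32 and 1.31). Of 9 resident macrophage markers 0 were higher (median −2.09), of 8 general macrophage markers 3 and of 3 neutrophil markers 1. Dendritic cells positive for CD11c and MHCII had been gated out, and the part of these markers in the member levels was not tested.

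Other genes of the same pathways were counted by list. For comparison, 45.9% of all genes tested were positive with CIII in F4/80lo Mϕ and 53.5% in F4/80hi Mϕ. None of the listed genes passed the limma test in any comparison, so the genes named from them are those with the smallest p in each direction. Among 14 other receptors of yeast particles and their adaptors, 6 were positive and 8 negative with CIII in F4/80lo Mϕ. The scavenger receptor gene Marco had 173, 376 and 88.3 normalized counts with VEH and 52.5, 22.8 and 45.3 with CIII, every CIII library lying below every VEH library. Its log2 difference was −2.21 (SE 0.53, limma adjusted p = 0.9996). Itgb2, the β chain of complement receptor CR3, was the leading positive gene at 0.46. Of 13 tested in F4/80hi Mϕ 7 were positive, with the fatty acid translocase gene Cd36 at 0.55 and Fcer1g, the Fc receptor γ chain through which Clec4n and Clec4e signal, at −0.61.

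Of 31 genes of Dectin-1 and Syk signalling 29 were tested in each subpopulation. F4/80lo Mϕ had 21 positive and 8 negative genes with CIII and a median log2 difference of 0.13. Plcg2, the phospholipase activated by Syk, had 129, 237 and 113 normalized counts with VEH and 311, 313 and 334 with CIII. All CIII libraries were above all VEH libraries, and the log2 difference was 1.07 (SE 0.36, limma adjusted p = 0.9996). F4/80hi Mϕ had 20 positive and 9 negative genes and a median of 0.21. There Pik3r1, a regulatory subunit of phosphoinositide 3-kinase, was at 106, 47.0 and 110.1 with VEH and 144, 138 and 222 with CIII, which did not overlap (log2 difference 0.99, limma adjusted p = 0.992). The leading negative genes were Ptpn11 (−0.39) for F4/80lo and the NADPH oxidase gene Cyba (−0.61) for F4/80hi Mϕ.

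All 37 genes of TLR2, MyD88 and NF-κB signalling were tested in F4/80lo Mϕ and 22 were positive with CIII, with a median of 0.16. For F4/80hi Mϕ 29 of 36 were positive and the median was 0.30. The NF-κB subunit gene Rela led the positive genes in F4/80lo Mϕ, at 57.0, 53.9 and 49.6 normalized counts with VEH and 67.4, 119 and 94.0 with CIII (log2 difference 0.76). The treatments did not overlap there. Tnfaip3, which encodes the NF-κB inhibitor A20, led the negative ones at 20.9, 7.70 and 17.0 with VEH and 7.09, 0 and 4.42 with CIII (−2.10). Among F4/80hi Mϕ the kinase gene Irak4 was at 0.96 and the inhibitor gene Nfkbib at −0.56.

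Of 21 listed genes known to be induced through zymosan receptors 11 were tested in F4/80lo Mϕ, 3 positive and 8 negative, and 13 in F4/80hi Mϕ, 6 positive and 7 negative. Il6, Il10, Il12b, Il23a, Csf2, Ptgs2, Egr3 and Nos2 did not reach the minimum in either. The chemokine gene Ccl3 had 23.3, 11.6 and 1.998 normalized counts with VEH and 2.84, 0 and 0 with CIII in F4/80lo Mϕ, which overlapped (−2.63). Il1rn, the interleukin 1 receptor antagonist gene, had 54.5, 73.2 and 19.9 with VEH and 14.4, 10.8 and 10.4 with CIII in F4/80hi Mϕ, which did not (−1.79, SE 0.54, limma adjusted p = 0.992). Casp1 led the positive genes, by 0.89 for F4/80lo and 0.63 for F4/80hi Mϕ.

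Of 9 relatives of the Card9 complex 8 were tested in F4/80lo Mϕ, 5 positive and 3 negative with CIII, and 7 in F4/80hi Mϕ, 4 positive and 3 negative. The bacterial sensor gene Nod1 was at 1.26 and Card10 at −0.84 in F4/80lo Mϕ. For F4/80hi Mϕ Nod2 was at 2.13, from at most 11.5 normalized counts with VEH to at most 17.3 with CIII, and Casp8 at −0.52.

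Between the subpopulations the lectin Cd209a, also a dendritic cell marker, had 1.57 to 122 jointly normalized counts in F4/80lo libraries against 0 to 2.25 in F4/80hi libraries (log2 difference 4.06, limma adjusted p = 0.103). Marco was lower in F4/80lo Mϕ, at 22.2 to 363 against 163 to 2357 (−2.80, limma adjusted p = 0.0809). Nfkb1 had 240.1 to 267 against 89.3 to 193, with no overlap (0.87, limma adjusted p = 0.145). The inhibitor gene Nfkbia was at −0.45, Nfatc2 at 1.25, Cyba at −0.33, Il1b at 3.19, Ccl3 at −2.01 and Ripk2 at −0.80, of which none passed. In the difference between the CIII responses, the leading genes of the 5 lists ran from −2.73 for Tnfaip3 to 1.17 for Il1rn.

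Genes whose levels ran most like those of Clec7a, Tlr2 and Card9 were sought among 6511 genes with a mean of at least 20 jointly normalized counts, by Pearson's r over the 12 libraries. These values are a description, as the libraries share treatments, subpopulations and replicate numbers. Clec7a ran most like Crebzf, Rbck1 and Runx3 (r = 0.86, 0.85 and 0.84). Tlr2 ran most like Colgalt1, Ddx3x and Plscr3 (r = 0.83, 0.78 and 0.78), and Card9 most like Hpf1, Gm12940 and Mbip (r = 0.83 each). Among the members Card9 ran opposite to Tlr2 (r = −0.72), with Syk at −0.55, Malt1 at −0.41, Tlr6 at −0.38, Bcl10 at −0.36, Myd88 at −0.19, Clec7a at −0.06 and Clec4e at 0.06. Clec4n was below the minimum level.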

How the data were processed

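Libraries of 3′ mRNA ends with unique molecular identifiers were made from the sorted F4/80lo or F4/80hi subpopulation, 3 per treatment. The authors trimmed reads with Bbduk, mapped them to GRCm38 with STAR, collapsed duplicate molecules and counted reads per gene with HTSeq-count, whose strand setting is not given in the sources used here. The deposited values are a count signal named as normalized read counts by the authors, whose methods name DESeq2 without stating the scaling. Each library's scale equalled the median-of-ratios size factor computed here from the reads of its own table. All values (100%, relative tolerance 0.001) were whole multiples of 1 read, so reads were recovered. Depth was 426624 to 3389448 reads, so weak genes are least precise in the shallowest library.

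The main test was limma 3.58.1 in R 4.3.3 (moderated with a mean trend) on log2(value + 1), two-sided. It was chosen because the deposited values are not whole counts, although whole reads could be recovered. Benjamini-Hochberg adjustment covered all genes with a mean of at least 3, with a threshold of 0.05. Fold changes on the log2(value + 1) scale understate changes of weak genes. CIII and VEH were compared within each table. For comparisons across tables the recovered reads of all 12 libraries were normalized by 1 set of median-of-ratios factors, computed here. edgeR 4.0.16 quasi-likelihood and DESeq2 1.42.0 on the recovered reads were alternatives. The procedure was tested on simulated data. Figures used matplotlib 3.10.9 in Python 3.11.15.

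Deviations from the group means were correlated across genes for libraries with the same replicate number. This correlation ran 0.121, 0.238, 0.504 (numbers 1 to 3) between the F4/80lo treatments. It ran 0.216, 0.412, 0.639 between the F4/80hi treatments. Between subpopulations it was 0.395, 0.386 and 0.692 with VEH and 0.266, 0.307 and 0.484 with CIII. Pairs of number 1 with number 2 ran from 0.0162 to 0.285, some of them above an equal-number pair. Pairs of number 3 with 1 or 2 ran from −0.525 to −0.163. The numbers come from the sample titles, and a fit with the replicate block was an alternative.

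The members, the 5 pathway lists (112 genes), the 10 marker lists and the tests were chosen with earlier results of these data known. Besides the members, the gene with the smallest limma p in each direction of each list was named, and the 3 genes most correlated with Clec7a, Tlr2 and Card9. A gene that this rule would name is not reported here. Symbols and coordinates are from GENCODE (47224 of 47643 identifiers matched) and promoters from RefSeq.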

Additional observations from a re-analysis of the deposited data

How the results depend on the processing

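Counts of genes called moved in some comparisons and stayed at 0 in others. For CIII against VEH in F4/80lo Mϕ, 0 calls became 2 with array weights, of which 1 was a member (Card9), 2 with DESeq2 and 12 with replicate numbers 1 and 2 alone. For F4/80hi Mϕ and for the difference between the responses, every alternative that was run gave 0. For F4/80lo against F4/80hi over both treatments, 2 calls became 10 with a pseudocount of 5, 0 with no minimum, 4 with reads per 1000000, 291 with array weights, 140 with DESeq2 and 352 with numbers 1 and 2 alone. Leaving out 1 library gave 0 to 140, with 140 without F4/80hi VEH 3, 40 without F4/80lo VEH 3, 9 without F4/80hi CIII 3 and 0 without any other. Within VEH, 0 became 9 with array weights, 19 with DESeq2 and 83 with numbers 1 and 2 alone, and 0 to 22 when 1 library was left out (22 without F4/80hi VEH 3, 4 without F4/80lo VEH 3). Within CIII, 0 became 73, 22 and 89, and 0 to 1, with 1 without F4/80lo VEH 3. The causes were not tested.

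With the replicate number as a block, F4/80lo against F4/80hi gave 264 calls over both treatments, 11 within VEH and 11 within CIII. For CIII against VEH the replicate block left the calls at 0 in both subpopulations, while genes with an unadjusted p under 0.05 went from 289 to 738 in F4/80lo Mϕ and from 413 to 1187 in F4/80hi Mϕ. It changed no call of a member.

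The sign was followed for 37 member differences. They were the CIII responses in both subpopulations and the F4/80lo against F4/80hi difference over both treatments for all 10 members. Clec7a and Myd88 within each treatment and the response differences of Card9, Clec7a and Myd88 made up the rest. Of these 37, 27 kept their sign in all alternatives that were run, among them all those followed of Card9, Tlr6 and Syk. The other 10 turned in at least 1 alternative. For CIII against VEH in F4/80lo Mϕ, Bcl10 was at 0.042 with reads per 1000000, 0.10 with numbers 1 and 2 alone and −0.14 to 0.13 without 1 library. Clec4e was at −0.0097 with quantile normalization, −0.071 with array weights, −0.24 with numbers 1 and 2 alone and −0.21 to 0.14 without 1 library. Malt1 was at 0.012 with reads per 1000000, 0.023 with quantile normalization, 0.16 with array weights, 0.33 with numbers 1 and 2 alone and −0.83 to 0.40 without 1 library. Clec4n was at −1.98 to 0.44 without 1 library.

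In F4/80hi Mϕ, Clec7a was at −0.80 to 0.16 without 1 library and Myd88 at 0.0040 with array weights. Between the subpopulations, Tlr2 was at 0.028 with numbers 1 and 2 alone. Clec4n was at 0.16 with a pseudocount of 5, 0.033 with reads per 1000000, 0.17 with quantile normalization, 0.60 with array weights, 0.57 with edgeR, 0.55 with DESeq2 and −0.48 to 0.73 without 1 library. Within VEH, Clec7a was at −0.19 to 0.59 and Myd88 at −0.077 to 0.19 without 1 library.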
